A study of Rattus norvegicus with 12 samples.

Results

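Crh, the gene of corticotropin-releasing hormone, was described together with Crhr1 and Crhr2, the genes of its receptors, and Crhbp, the gene of its binding protein. These 4 genes were chosen by name, and all 4 were found among the 17310 genes of the files and were tested. The data are mRNA libraries of hypothalamic tissue containing the paraventricular nucleus (PVH) from wild-type male Wistar rats aged 12 weeks, in 6 groups of 2 libraries. Rats given high corticosterone over 12 days (high Cort) and adrenalectomised rats that received corticosterone (supplemented ADX) were 2 of the groups. Acute corticosterone preceded sampling by 1 h (1 h acute) or 3 h (3 h acute) in 2 others, and rats 7 days after adrenalectomy (ADX) and sham-operated rats (sham) were the rest. The doses and routes of corticosterone, the duration of supplementation and the adrenal state of the acutely treated rats are not stated in the sources used here. The sample titles do not give the adrenal state of the high Cort rats either. Nor is it stated whether a library came from 1 rat or from a pool. The p-values therefore measure only the spread between libraries, which may be technical.

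Corticotropin-releasing hormone is made by small neurosecretory neurons of the PVH, travels to the pituitary and drives the release of ACTH, which in turn drives the adrenal cortex to secrete glucocorticoids. Glucocorticoids feed back on these neurons and restrain the gene, and loss of the adrenal glands removes that restraint. Both receptors couple mainly to the stimulatory G protein and cAMP. The type 1 receptor binds the hormone with high affinity, the type 2 receptor prefers the related urocortins, and the secreted binding protein sequesters the hormone.

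The libraries held 17674159 to 36249006 fragments. Levels below are fragments scaled by library size and TMM factor (CPM), given as mean ± SD over the 2 libraries of a group, and differences are log2 fold changes ± SE from edgeR's quasi-likelihood model of all 12 libraries. A gene was called at a Benjamini-Hochberg adjusted p under 0.05 over 12856 tested genes. The members rested on 58 to 856 fragments per library for Crh, 79 to 153 for Crhbp, 213 to 421 for Crhr1 and 61 to 167 for Crhr2. The PVH lineage genes Sim1, Otp, Pou3f2 and Arnt2 were detected in every library, and so were the 12 tested markers of the neighbouring thalamus. The 12 thalamus markers summed to 1965 to 1982 CPM in high Cort, 1151 to 1215 in supplemented ADX, 494 to 944 in 1 h acute, 858 to 912 in 3 h acute, 1076 to 1226 in ADX and 1478 to 2013 in sham. In such bulk samples, fewer cells of a type and less RNA per cell cannot be told apart.

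Crh was the member that varied most. The high Cort libraries held 2.35 and 4.16 CPM, and the supplemented ADX libraries 14.3 and 18.9 CPM. The acute groups held 18.6 and 15.2 CPM (1 h) and 20.8 and 23.8 CPM (3 h), the ADX libraries 25.6 and 26.9 CPM, and the sham libraries 10.5 and 13.5 CPM. Both high Cort libraries lay below every other library and both ADX libraries above every other library. The mean in ADX was 8.07 times that in high Cort. Over the 6 groups tested together Crh differed (adjusted p = 0.00191), as did 12.9% of all genes tested.

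**Figure D1:**
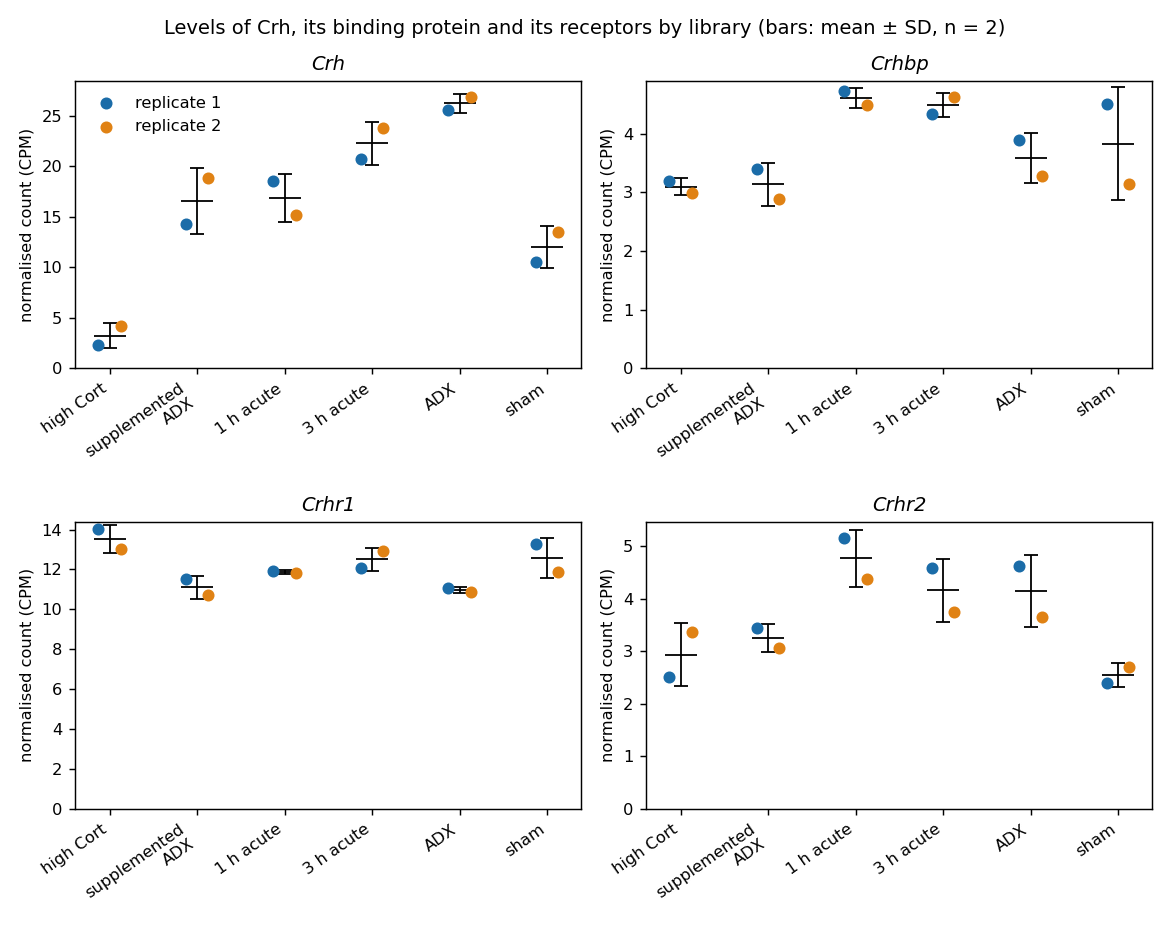
Level of each member in CPM (y axes, linear from 0) in the 6 groups (x axes); points are the 2 libraries of a group, horizontal bars their mean and whiskers the SD. Crh is lowest in high Cort (2.35 and 4.16 CPM) and highest in ADX (25.6 and 26.9 CPM), while Crhr1 stays between 10.7 and 14.0 CPM in all 12 libraries.

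In order of mean level, Crh ran from high Cort (3.25 ± 1.28 CPM) through sham (12.0 ± 2.09), supplemented ADX (16.6 ± 3.27), 1 h acute (16.9 ± 2.37) and 3 h acute (22.3 ± 2.15) to ADX (26.2 ± 0.960). Sham and supplemented ADX lay closer than the sum of their SDs although their libraries did not overlap, and the libraries of supplemented ADX and 1 h acute overlapped. The other neighbours in the order lay farther apart than the sum of their SDs.

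Crh fell in high Cort against sham (log2 fold change -1.85 ± 0.27, 95% interval -2.46 to -1.25, adjusted p = 0.0170), a 3.61-fold lower level. It was the 1 member of 4 called, where 0.871% of all genes were called, 0.358% with a lower level, 8.36% had an unadjusted p under 0.05 and 37.8% had groups that did not overlap. DESeq2 called it as well, whereas limma on log2(FPKM + 1) (adjusted p = 0.0539), limma on log2(FPKM + 0.1) (adjusted p = 0.0791) and an edgeR fit of these 4 libraries alone (adjusted p = 0.0765) did not. The call was also lost without sham replicate 2 (adjusted p = 0.0972) and without high Cort replicate 1 (adjusted p = 0.0708), with log2 fold changes from -2.36 to -1.54 when any of the 4 libraries was left out.

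Crh fell farther in high Cort against ADX, to a level 7.88-fold lower (-2.98 ± 0.24, 95% interval -3.53 to -2.43, adjusted p = 0.000311). It was again the 1 member of 4 called, in a comparison that called 5.77% of all genes. All 4 members had groups that did not overlap, as did 53.8% of all genes, and 3 members had an unadjusted p under 0.05, as 20.9% of all genes did. This call held without each of the 4 libraries in turn, with adjusted p-values from 0.000218 to 0.00459.

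In ADX against sham, edgeR called none of the 4 members, where 0.233% of all genes were called, and 3 members had an unadjusted p under 0.05, as 12.8% of all genes did. The groups did not overlap for 3 members and for 47.2% of all genes. DESeq2 gave no adjusted p for any of the 4; its unadjusted p for Crh was 7.18e-11, with a log2 fold change of 1.13. For Crh in edgeR the log2 fold change was 1.13 ± 0.20 (95% interval 0.68 to 1.57, adjusted p = 0.0695), with both ADX libraries above both sham libraries. A fit of these 4 libraries alone called it (1.13, adjusted p = 0.0180).

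Supplemented ADX lay between ADX and sham in mean Crh level. Against ADX the log2 fold change was -0.67 ± 0.18 (95% interval -1.09 to -0.25, adjusted p = 1.00), and against sham it was 0.46 ± 0.20 (95% interval -0.0039 to 0.92, adjusted p = 0.501). Its libraries overlapped with neither group. These comparisons share libraries and cross the 2 processing runs of the deposited files. They called 0.0311% and 0.0156% of all genes by edgeR, and no member by edgeR or DESeq2; DESeq2 gave no adjusted p for the members against sham. Against ADX, 1 member had an unadjusted p under 0.05 (4.05% of all genes), and against sham 0 had (10% of all genes). The groups did not overlap for 2 members against ADX (35% of all genes) and for 3 against sham (41.5%).

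After acute corticosterone, the mean level of Crh was no lower than in supplemented ADX. At 1 h the groups overlapped and the log2 fold change was 0.05 ± 0.20 (95% interval -0.40 to 0.50, adjusted p = 0.939). At 3 h both libraries lay above both supplemented ADX libraries (0.43 ± 0.19, 95% interval -0.01 to 0.87, adjusted p = 0.409) and above both 1 h acute libraries (0.38 ± 0.20, 95% interval -0.07 to 0.84, adjusted p = 0.550). The 1 h interval does not reach the fall seen in high Cort against sham. Those 2 comparisons differ in time of exposure, reference group and processing run, so no conclusion is drawn from their sizes. No member was called by edgeR in these 3 comparisons, which called 0.0467%, 0.00778% and 0.0233% of all genes, and DESeq2 called none of those it gave an adjusted p. An unadjusted p under 0.05 was reached by 2 members at 1 h (14.7% of all genes), 1 member at 3 h (12.5%) and 0 members between the acute groups (10.6%). Against supplemented ADX the groups did not overlap for 3 members at 1 h (46.5% of all genes) and 4 members at 3 h (45.8%). The acute groups did not overlap with each other for 2 members, and for 38.9% of all genes.

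**Figure D2:**
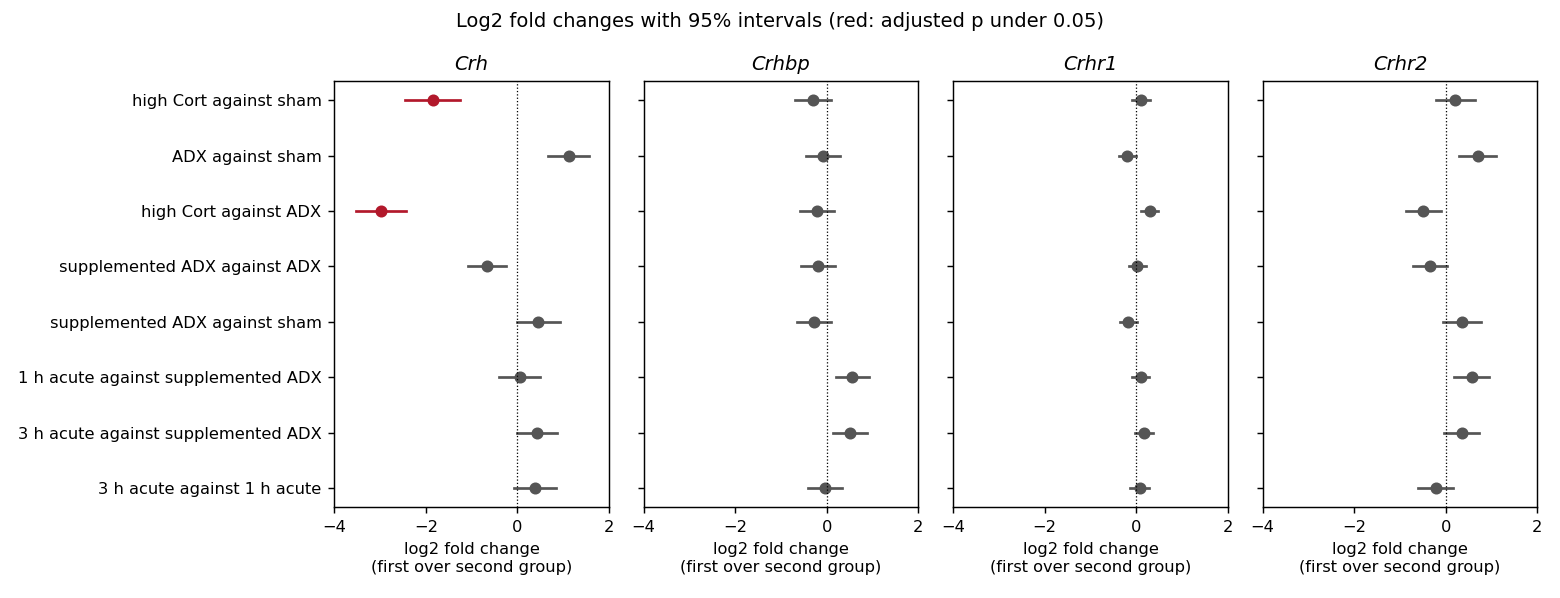
Log2 fold change of each member (x axes, first named group over the second) in the 8 comparisons (rows), with points for estimates and lines for 95% intervals; red marks an adjusted p under 0.05. The red points are Crh in high Cort against sham (-1.85) and in high Cort against ADX (-2.98).

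The lineage genes Sim1, Otp, Pou3f2 and Arnt2 encode transcription factors that specify neurosecretory neurons of the PVH, and their mean level on the log2 CPM scale served as a lineage score. High Cort scored 6.13 and 6.14, supplemented ADX 6.53 and 6.47, 1 h acute 6.62 and 6.73, 3 h acute 6.61 and 6.63, ADX 6.61 and 6.51, and sham 6.29 and 6.42. The score was thus lowest in high Cort too. Relative to the lineage score of its own library, log2 Crh stood at -4.85 and -4.06 in high Cort, -1.93 and -1.76 in ADX, and -2.88 and -2.66 in sham, so these 3 groups kept their order without overlap. Supplemented ADX stood at -2.68 and -2.22, 1 h acute at -2.40 and -2.80, and 3 h acute at -2.23 and -2.05. On this scale the libraries of supplemented ADX overlapped with those of sham and of both acute groups. With the score as a covariate the log2 fold change of Crh was -1.94 in high Cort against sham, with no call (adjusted p = 0.457), and -3.15 in high Cort against ADX (adjusted p = 0.800). That covariate left 4 genes called in all in high Cort against sham and 0 in high Cort against ADX. Without it the counts were 112 and 742, so the loss of calls was not particular to Crh. With the thalamus score, the mean log2 CPM of the thalamus markers, as a covariate both calls held.

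Levels of different genes were compared per transcript length, in FPKM, within a library. Crh was the most abundant member in sham, where it reached 10.7 and 13.6 FPKM, against 5.78 and 5.14 FPKM for Crhr1. In ADX it stood at 26.1 and 27.6 FPKM, and Crhr1 at 4.81 and 4.71 FPKM. In high Cort the order was turned: Crh stood at 2.39 and 4.20 FPKM, below Crhr1 at 6.06 and 5.64 FPKM. The level ratio of Crh to Crhr1 was thus 0.394 and 0.745 in high Cort, 5.44 and 5.85 in ADX, and 1.84 and 2.64 in sham. In the other processing run, supplemented ADX gave ratios of 2.91 and 4.17, 1 h acute 3.66 and 3.03, and 3 h acute 4.01 and 4.34. Crhbp and Crhr2 lay below Crhr1 in every library.

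**Figure D3:**
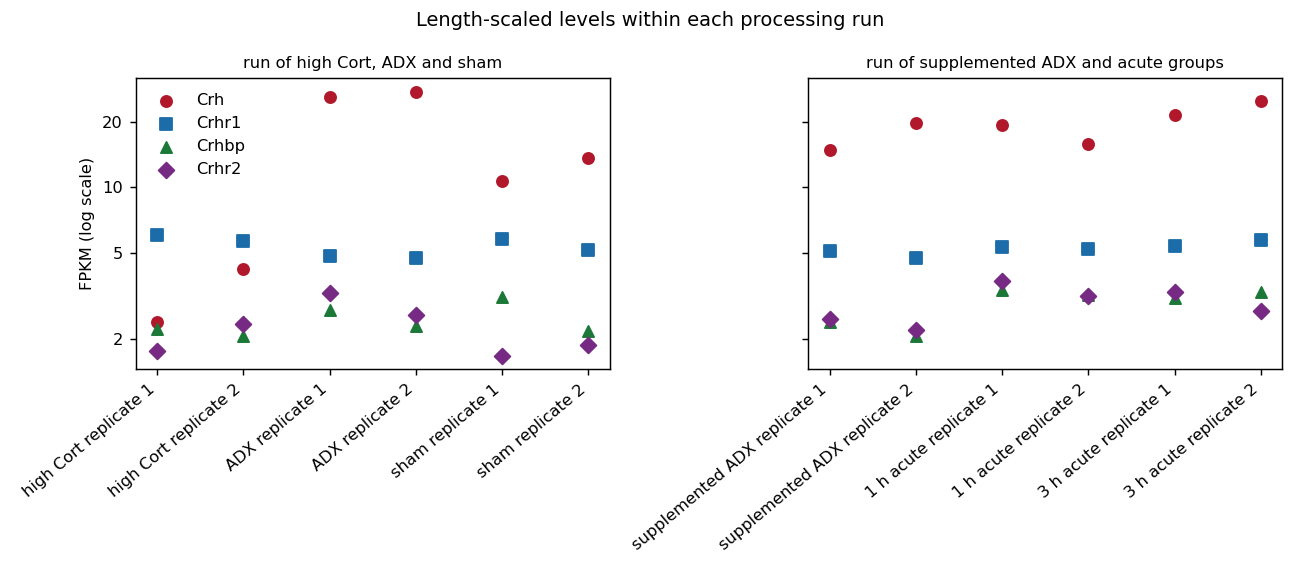
FPKM of the 4 members (y axis, log scale) in each library (x axes), with 1 panel for each of the 2 processing runs, within which FPKM can be compared. Crh lies above Crhr1 in 10 libraries and below it in both high Cort libraries (2.39 against 6.06 FPKM and 4.20 against 5.64 FPKM).

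Crhr1, which encodes the high-affinity receptor of the hormone, was the least variable member. High Cort libraries held 14.0 and 13.01 CPM, supplemented ADX 11.5 and 10.7 CPM, and 1 h acute 11.9 and 11.8 CPM. The 3 h acute libraries held 12.1 and 12.9 CPM, ADX 11.1 and 10.9 CPM, and sham 13.3 and 11.9 CPM. The highest group mean, 13.5 ± 0.700 CPM in high Cort, was 1.23 times the lowest, 11.0 ± 0.162 CPM in ADX. In the order of means, ADX, supplemented ADX, 1 h acute, 3 h acute, sham and high Cort, supplemented ADX and 1 h acute were the only neighbours that differed by more than the sum of their SDs.

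Crhr1 did not pass the test over the 6 groups (adjusted p = 0.128). In high Cort against ADX its log2 fold change was 0.30 ± 0.09 (95% interval 0.11 to 0.48, adjusted p = 0.0597), and in high Cort against sham 0.10 ± 0.09 (95% interval -0.09 to 0.29, adjusted p = 0.862). In ADX against sham it was -0.20 ± 0.09 (95% interval -0.39 to -0.01, adjusted p = 0.371). No interval of Crhr1 in the 8 comparisons reached a change of 0.5 on the log2 scale in either direction.

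Crhr2, which encodes the receptor that the urocortins also bind, was low and varied more. High Cort libraries held 2.51 and 3.36 CPM, supplemented ADX 3.45 and 3.07 CPM, and 1 h acute 5.15 and 4.38 CPM. The 3 h acute libraries held 4.58 and 3.74 CPM, ADX 4.63 and 3.66 CPM, and sham 2.39 and 2.71 CPM. The libraries of 1 h acute, 3 h acute and ADX all lay above those of the other 3 groups. In order of means the groups were sham (2.55 ± 0.223 CPM), high Cort (2.93 ± 0.602), supplemented ADX (3.26 ± 0.269), ADX (4.14 ± 0.686), 3 h acute (4.16 ± 0.593) and 1 h acute (4.77 ± 0.548). No neighbours in this order differed by more than the sum of their SDs.

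Over the 6 groups together Crhr2 differed (adjusted p = 0.0228), but no comparison of 2 groups called it. In ADX against sham its log2 fold change was 0.70 ± 0.19 (95% interval 0.30 to 1.10, adjusted p = 0.145). In 1 h acute against supplemented ADX it was 0.57 ± 0.18 (95% interval 0.19 to 0.94, adjusted p = 0.190), and in high Cort against ADX -0.49 ± 0.18 (95% interval -0.87 to -0.10, adjusted p = 0.133). Leaving out replicate 1 of either sham or high Cort removed the call over the 6 groups. So did the thalamus score (adjusted p = 0.348) or the PVH lineage score (adjusted p = 0.618) as a covariate. Both covariates also cut the calls over all genes in high Cort against ADX, from 742 to 250 (thalamus) and 0 (lineage). In high Cort against sham the thalamus score raised them from 112 to 159, and the lineage score cut them to 4. Whether the loss with a covariate was particular to Crhr2 was not tested.

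Markers of the ventromedial hypothalamus, a neighbouring nucleus that is a known site of Crhr2 expression, were measured beside it. The 3 markers Nr5a1, Fezf1 and Sox14 summed to 1.78 to 3.06 CPM in high Cort, 4.19 to 5.42 in supplemented ADX, 6.79 to 8.32 in 1 h acute, 5.16 to 7.95 in 3 h acute, 3.95 to 4.90 in ADX and 2.49 to 3.45 in sham. Like Crhr2, the sum was low in high Cort and sham and highest in 1 h acute. Unlike Crhr2 (means of 3.26 and 4.14 CPM), the sum was no lower in supplemented ADX than in ADX. Most of the sum was Fezf1, the 1 marker of the 3 that differed over the 6 groups (adjusted p = 0.00368), where 12.9% of all genes did. Fezf1 was also lower in high Cort against ADX (-1.12, adjusted p = 0.0287). Sox14 had another order, with its lowest mean, 0.345 CPM, in 3 h acute (adjusted p = 0.777 over the 6 groups). None of the 3 was at 0 in any library. The 7 tested choroid plexus markers, another site of Crhr2, summed to 16.0 to 21.2 CPM over all libraries with no such order. The part of either list in the Crhr2 result was not tested.

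Crhbp was low in every group and highest in the acute groups. High Cort libraries held 3.20 and 2.99 CPM, supplemented ADX 3.39 and 2.88 CPM, and 1 h acute 4.72 and 4.49 CPM. The 3 h acute libraries held 4.34 and 4.63 CPM, ADX 3.88 and 3.28 CPM, and sham 4.51 and 3.15 CPM. The sham libraries were farther apart than those of any other group, and 1 of them lay within the range of both acute groups. In order of means the groups were high Cort, supplemented ADX, ADX, sham, 3 h acute and 1 h acute, and every pair of neighbours overlapped.

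Crhbp did not pass the test over the 6 groups (adjusted p = 0.0919). In both acute groups its libraries lay above those of supplemented ADX, with a log2 fold change of 0.56 ± 0.17 at 1 h (95% interval 0.19 to 0.92, adjusted p = 0.187) and 0.51 ± 0.18 at 3 h (95% interval 0.14 to 0.89, adjusted p = 0.270). Groups that did not overlap were seen in 46.5% of all genes at 1 h and in 45.8% at 3 h. In high Cort against sham the log2 fold change was -0.30 ± 0.18 (95% interval -0.69 to 0.08, adjusted p = 0.740), and in high Cort against ADX -0.21 ± 0.18 (95% interval -0.59 to 0.16, adjusted p = 0.544).

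Crhbp and Crhr2 had their highest mean in the same group, 1 h acute, though neither was called there against supplemented ADX. Their promoters are shown as a description only, as given by RefSeq for build GRCr8, which is not the build named for these data. RefSeq promoters were matched for 3 members, Crhbp, Crhr1 and Crhr2. The 250 bases before each start were searched on both strands for the cAMP response element TGACGTCA, its core TGACG, the glucocorticoid response element (AGAACA, 3 bases of any kind, TGTTCT), its arm AGAACA, and the TATA box TATAAA. Crhbp (chr2:28439447-28439696, minus strand) and Crhr2 (chr4:85581464-85581713, minus strand) each held the core once, on the reverse strand, in capitals below; it overlaps no other motif searched.
Crhbp: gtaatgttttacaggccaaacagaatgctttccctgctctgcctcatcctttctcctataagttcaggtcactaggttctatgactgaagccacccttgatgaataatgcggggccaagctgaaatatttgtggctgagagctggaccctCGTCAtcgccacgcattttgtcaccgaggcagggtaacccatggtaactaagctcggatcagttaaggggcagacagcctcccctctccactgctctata
Crhr2: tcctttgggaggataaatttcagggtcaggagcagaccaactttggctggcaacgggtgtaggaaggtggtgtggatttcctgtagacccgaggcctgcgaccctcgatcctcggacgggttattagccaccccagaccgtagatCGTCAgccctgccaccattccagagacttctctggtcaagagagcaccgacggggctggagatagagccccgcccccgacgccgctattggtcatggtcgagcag

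The core starts 100 bases before the start of Crhbp and 105 bases before that of Crhr2, and 18.2% of 33469 rat promoters hold it. Neither promoter, nor those given for Crhr1, held the other motifs, which 1.59% (TGACGTCA), 0.012% (the full glucocorticoid response element), 17.5% (AGAACA) and 12.9% (TATAAA) of promoters hold. A match is a description of the letters, and these data do not measure binding.

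Of the other ligands of the receptors, the urocortins, Ucn and Ucn2 had at most 2 fragments in any library and were not tested. Ucn3, a selective ligand of the type 2 receptor, was low. It rested on 7 to 61 fragments per library. High Cort libraries held 0.93 and 1.03 CPM, supplemented ADX 1.67 and 1.85 CPM, and 1 h acute 1.45 and 1.28 CPM. The 3 h acute libraries held 2.27 and 2.49 CPM, ADX 1.43 and 1.18 CPM, and sham 0.27 and 1.32 CPM. It did not pass the test over the 6 groups (adjusted p = 0.0877). The wide gap between the sham libraries limits any comparison with sham.

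The genes downstream of the receptors were 28 tested genes for G proteins, arrestins, receptor kinases, adenylyl cyclases, protein kinase A, phosphodiesterases and CREB cofactors. Over the 6 groups 7 of the 28 differed, where 12.9% of all genes did, with the smallest p-values for the phosphodiesterase genes Pde4b (adjusted p = 0.00213), Pde4d (0.00864) and Pde4a (0.00936) and the adenylyl cyclase gene Adcy8 (0.0117). Between 2 groups, 2 of the 28 rose in high Cort against ADX, where 3.5% of all genes rose. They were the cAMP phosphodiesterase genes Pde4a (91.7 against 79.5 CPM, 0.21 ± 0.05, adjusted p = 0.0179) and Pde4d (78.6 against 66.9 CPM, 0.24 ± 0.07, adjusted p = 0.0475). Both were, like the summed thalamus markers, higher in high Cort and sham than in the other groups. Sham means were 89.6 CPM for Pde4a and 76.1 CPM for Pde4d. The part of thalamic tissue in the change of any of these genes was not tested. DESeq2 called 0 of the 28 in high Cort against ADX. In high Cort against sham edgeR called 0 of 28, with 1 at an unadjusted p under 0.05 (8.36% of all genes), and DESeq2 called 0. In ADX against sham edgeR called 0 of 28, with 6 at an unadjusted p under 0.05 (12.8% of all genes), and DESeq2 called 0. The median log2 fold change of the 28 genes was 0.05 in high Cort against ADX, 0.03 in high Cort against sham and -0.02 in ADX against sham. All genes tested had medians of 0.01, 0.01 and -0.0045.

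Genes that process prohormones changed in both directions in high Cort against ADX. Of 11 tested, Pcsk2, which encodes a prohormone convertase, rose (515 against 406 CPM, 0.34 ± 0.06, adjusted p = 0.00681), and so did Cpe, the carboxypeptidase gene (1841 against 1603 CPM, 0.20 ± 0.05, adjusted p = 0.0207). Pcsk1, which encodes another convertase, fell (72.4 against 90.7 CPM, -0.33 ± 0.06, adjusted p = 0.00562), as did the granule protein gene Scg2 (767 against 889 CPM, -0.21 ± 0.04, adjusted p = 0.00614). In this comparison 3.5% of all genes rose and 2.27% fell, and DESeq2 called 4 of the 11. In high Cort against sham edgeR called 0 of the 11, with 2 at an unadjusted p under 0.05 (8.36% of all genes), and DESeq2 called 0. In ADX against sham edgeR called 0 of the 11, with 4 at an unadjusted p under 0.05 (12.8% of all genes). DESeq2 called 1 there, and 128 genes in all. Over the 6 groups 5 of the 11 differed, where 12.9% of all genes did. Pcsk2 and Cpe, like the summed thalamus markers, were higher in high Cort and sham than in the other groups. Cpe averaged 1789 CPM in sham and 1495 to 1641 CPM in the 4 groups other than high Cort and sham. Pcsk2 had 499 and 531 CPM in high Cort, 376 and 328 CPM in 1 h acute and 462 and 515 CPM in sham; the part of thalamic tissue in the change of either gene was not tested.

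Of 12 genes that regulate Crh or specify its neurons, 3 fell in high Cort against ADX and 0 rose, where 2.27% of all genes fell and 3.5% rose. These 3 are also in the lineage score above. DESeq2 called 4 of the 12 in this comparison. Otp stood at 22.3 against 35.7 CPM (-0.68 ± 0.10, adjusted p = 0.00185), Sim1 at 37.0 against 51.5 CPM (-0.48 ± 0.08, adjusted p = 0.00447) and Pou3f2, which encodes an activator of the Crh promoter, at 70.3 against 90.1 CPM (-0.36 ± 0.05, adjusted p = 0.000731). Their falls were smaller than that of Crh, whose interval in the same comparison ends at -2.43. In high Cort against sham edgeR called 0 of the 12, with 3 at an unadjusted p under 0.05 (8.36% of all genes). DESeq2 called 1 there, and 138 genes in all. In ADX against sham edgeR called 0 of the 12, with 6 at an unadjusted p under 0.05 (12.8% of all genes), and DESeq2 called 0. Nr3c1, the glucocorticoid receptor gene, and Nr3c2, the mineralocorticoid receptor gene, were not called in any of the 8 comparisons, but both differed over the 6 groups (adjusted p = 0.0339 and 0.0426). Both had their lowest mean in 3 h acute, 190 CPM for Nr3c1 and 43.2 CPM for Nr3c2. Supplemented ADX, of the same processing run, held 213 and 48.0 CPM, and sham, of the other run, 228 and 48.7 CPM. Of the 12 genes, 8 differed over the 6 groups, where 12.9% of all genes did. Nr4a1 and Nr4a3 were among them (adjusted p = 0.00392 and 0.00663). Their means were 19.1 and 24.6 CPM in 1 h acute, against 13.2 and 9.55 CPM in supplemented ADX, a comparison that called 0 of the 12.

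**Figure D4:**
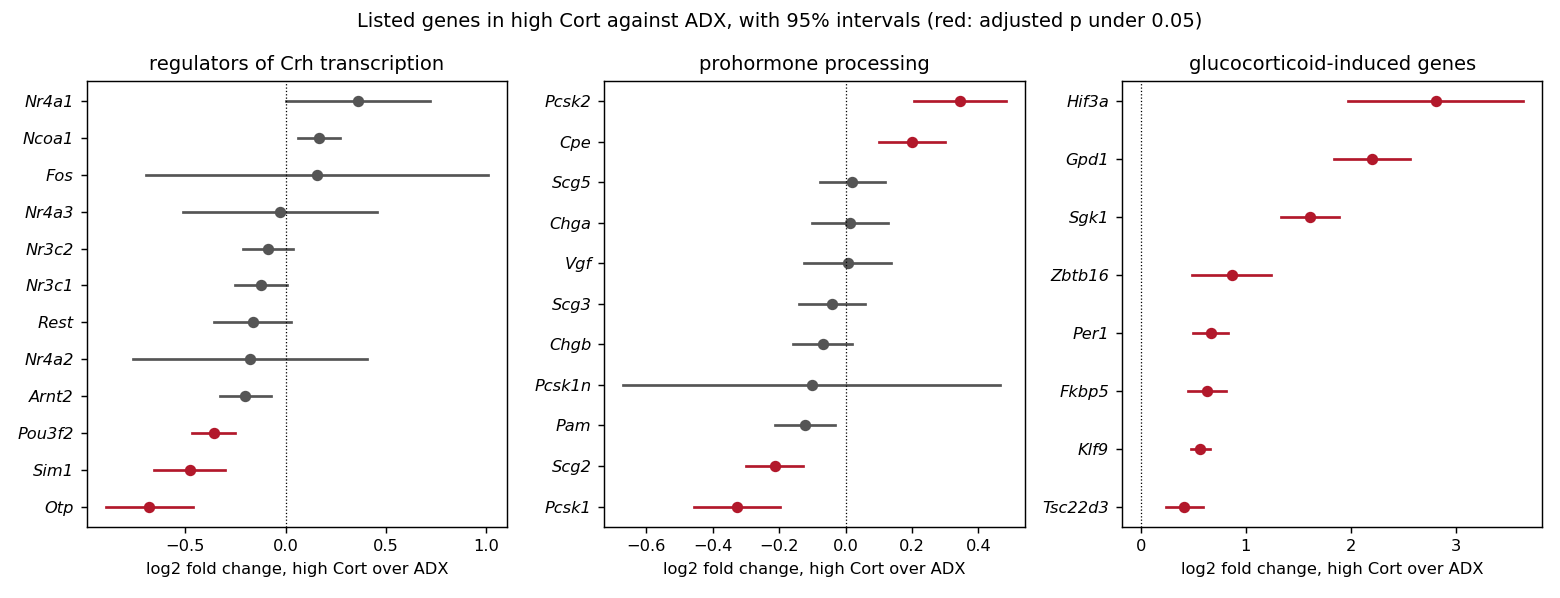
Log2 fold change in high Cort over ADX (x axes) with 95% intervals for 3 gene lists (panels, 1 gene a row); red marks an adjusted p under 0.05. Otp (-0.68), Sim1 (-0.48) and Pou3f2 (-0.36) are the red genes of the first panel, and all 8 glucocorticoid-induced genes of the last panel are red and above 0.

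A list of 8 genes that glucocorticoids are known to induce was measured in the same libraries. The list was chosen with earlier results of these data known, so its share of calls is a description only. All 8 rose in high Cort against ADX, where 3.5% of all genes rose, and in high Cort against sham, where 0.513% of all genes rose. DESeq2 called all 8 in both, and 138 genes in all in high Cort against sham. Against ADX, the kinase gene Sgk1 stood at 79.7 against 26.0 CPM, the metabolic gene Gpd1 at 114 against 24.7 CPM, the clock gene Per1 at 82.9 against 52.3 CPM and Klf9, which encodes a transcription factor, at 108 against 73.3 CPM. In ADX against sham edgeR called 0 of the 8, with 2 at an unadjusted p under 0.05 (12.8% of all genes), and DESeq2 called 0. In 1 h acute against supplemented ADX where 0.0389% of all genes rose, the 1 gene of the 8 called was Per1 (84.9 against 49.6 CPM, 0.77 ± 0.08, adjusted p = 0.00174), in the same libraries in which Crh gave 0.05 ± 0.20. In 3 h acute against 1 h acute Per1 fell (50.8 against 84.9 CPM, -0.74 ± 0.08, adjusted p = 0.00309), as did 0.0156% of all genes.

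The genes whose pattern over the 12 libraries was most like that of Crh were ranked by Pearson's r of log2 CPM among 10971 genes, as a description. They were Aplnr, the apelin receptor gene (r = 0.97), Igf2, which encodes a growth factor (0.97), Pdpn, which encodes podoplanin (0.95), Nes, which encodes the intermediate filament nestin (0.95), and Pcdh12, which encodes a protocadherin of endothelial cells (0.95). Spearman's rho was 0.91, 0.87, 0.88, 0.75 and 0.76 in the same order. Without both high Cort libraries, the farthest from the median of Crh, r was 0.85, 0.78, 0.67, 0.57 and 0.66, so much of the likeness rests on that group. The libraries of a group share a treatment, so the points are not independent.

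For Crhr2 the most alike were Gda, which encodes guanine deaminase (r = 0.94), Kcng1, which encodes a potassium channel subunit (0.93), and Usp10, which encodes a deubiquitinase (0.92). Without the 2 libraries farthest from the median of Crhr2, r was 0.90, 0.92 and 0.89. For Crhr1 they were Wbp2 (0.93), Sema3g (0.90) and Pink1 (0.89), and for Crhbp they were Fam98c (0.92), Gucd1 (0.91) and Slc22a17 (0.89). Among the members themselves, r over the 12 libraries was -0.74 between Crh and Crhr1, 0.58 between Crh and Crhr2, 0.39 between Crh and Crhbp, 0.50 between Crhbp and Crhr2, 0.21 between Crhbp and Crhr1, and -0.43 between Crhr1 and Crhr2.

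**Figure D5:**
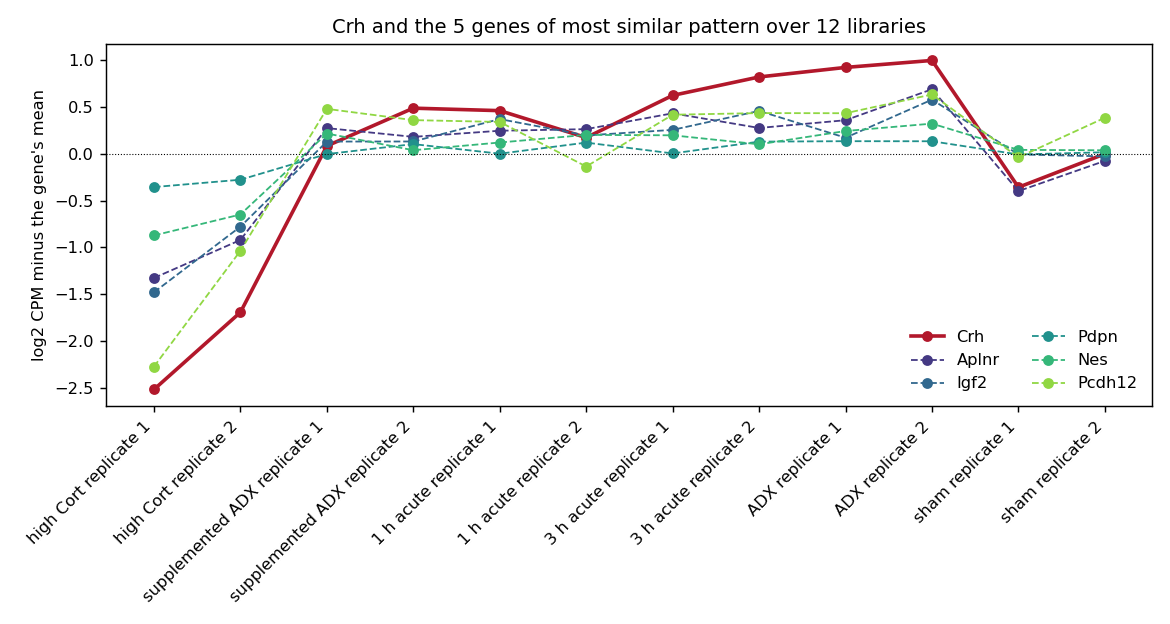
Level of Crh and the 5 genes of most similar pattern in each of the 12 libraries (x axis), as log2 CPM minus the mean of the gene over all libraries (y axis). All 6 genes are lowest in the high Cort libraries, where Crh departs farthest from its mean, and lie closer together in the other groups.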

How the data were processed

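Libraries were made from total RNA with the Illumina TruSeq RNA kit (version 2), per the labels' protocols. The kit does not mark strand, so reads of an overlapping antisense gene could not be told apart. The submitters' processing notes name CASAVA 1.8.2, TopHat2 2.1.1, Cufflinks 2.2.1 and build rn6; the gene annotation is not given in the sources used here. Fragments per gene were deposited without scaling and were taken to be expected counts, with the 0.751% of values that were not whole rounded. The deposited FPKM values were scaled by the authors within 2 separate runs of 3 groups each, per the file headers, and were compared only within a run.

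Counts were filtered with filterByExpr (minimum count 10, minimum total 15), which left 12856 genes, scaled by TMM and fitted with edgeR 4.0.16 in R 4.3.3, with 1 robust quasi-likelihood model of all 12 libraries and a coefficient per group. Tests were 2-sided, and SE was the log2 fold change divided by the root of F. The acute groups were compared with supplemented ADX, which shares their processing run, and not with sham. The pipeline was tested on simulated counts drawn from its own fitted spread, which cannot show whether the model holds for these data. DESeq2 1.42.0 and limma 3.58.1 on log2 FPKM (pseudocount 1 or 0.1) were alternatives, with other scaling, filters, covariates, a replicate block and each library left out. The likeness rule took the 5 genes (Crh) or 3 genes (other members) of highest r among named genes with a mean log2 CPM (prior count 2) of at least 1. Pathway genes called between 2 groups were named, at most 4 a list. The members and the lists were chosen with earlier results of these data known, so the shares of a list called are descriptions.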

Additional observations from a re-analysis of the deposited data

How the results depend on the processing

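Of 494 re-computed values of the 36 member results, 467 kept their direction and their side of the threshold, 12 lost a call, 3 gained one and 12 changed sign; 14 values of DESeq2 had no adjusted p. For Crh in high Cort against sham the call was lost with the PVH lineage score (-1.94), in the fit of 4 libraries (-1.87) and by limma on FPKM with pseudocount 1 (-1.64) or 0.1 (-1.89), and the value lay between -2.36 and -1.54 with 1 library left out. Crh in high Cort against ADX lost it with the lineage score (-3.15), and Crh in ADX against sham gained it in the fit of 4 libraries (1.13). Over the 6 groups, the adjusted p of Crh was 0.278 with the lineage score, and that of Crhr2 was 0.348 with the thalamus score, 0.618 with the lineage score and 0.0222 to 0.0528 with 1 library left out. That of Crhbp was 0.0368 to 0.196 with 1 library left out, with a call without either sham library.

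Changes of sign were seen in results that had no call. With 1 library left out, the log2 fold change of Crhr2 in high Cort against sham lay between -0.0330 and 0.39, that of Crhbp in ADX against sham between -0.33 and 0.19 and in supplemented ADX against sham between -0.51 and 0.0036. Likewise Crhr1 in supplemented ADX against ADX lay between -0.0336 and 0.0709, Crh in 1 h acute against supplemented ADX between -0.15 and 0.26, and Crhbp in 3 h acute against 1 h acute between -0.0929 and 0.0031. With the lineage score Crhbp in ADX against sham was 0.0923 and Crhr1 in supplemented ADX against ADX -0.0011, and with the thalamus score Crhbp in 3 h acute against 1 h acute was 0.0011. The cause of these changes was not tested.

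Same-numbered libraries did not deviate together: of 15 pairs of groups, 1 had a correlation of deviations over 0.1 and the values ran from -0.189 to 0.102. A replicate block changed no call of a member (Crh in high Cort against sham -1.86, adjusted p = 0.00689; in ADX against sham 1.13, adjusted p = 0.0514). It gave 19 calls over all genes in ADX against sham, against 30 without it. Counts of genes called varied more than the members did: over the alternatives they ran from 4 to 159 in high Cort against sham (112 as reported), 0 to 148 in ADX against sham (30), 0 to 1653 in high Cort against ADX (742), 0 to 33 in supplemented ADX against ADX (4), 0 to 64 in supplemented ADX against sham (2), 0 to 624 in 1 h acute against supplemented ADX (6), 0 to 154 in 3 h acute against supplemented ADX (1), 0 to 35 in 3 h acute against 1 h acute (3) and 45 to 2181 over the 6 groups (1663). With 61 to 167 fragments a library, intervals of Crhr2 span up to 0.86 on the log2 scale.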
